A study of Homo sapiens with 14 samples.

Results

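The genes described here are 10 repressors of transcription that act through chromatin, followed in IMR90 cells made senescent with a small molecule. They were chosen by name: the heterochromatin protein 1 (HP1) genes CBX1, CBX3 and CBX5, the histone methyltransferase genes SUV39H1 and SUV39H2, the Polycomb genes EZH2, SUZ12 and EED, and the DNA methylation genes DNMT1 and UHRF1. All 10 were listed among the 54628 gene symbols of the files, and all 10 were among the 19126 genes that passed the filter on low counts. IMR90 is an established line of human lung fibroblasts. It was grown from a pair of isolates at passage 5, and the labels do not say which isolate gave which library. Senescence, a lasting exit from the cell cycle, was induced with 10 µM inflachromene (ICM), a ligand of the HMGB1 and HMGB2 proteins, over at most 6 days.

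RNA was sequenced from 14 libraries, 2 in each of 7 groups. Untreated cells without a knockdown (WT) and untreated cells with an siRNA knockdown of HMGB2 (siHMGB2) received no ICM. The other 10 libraries all came from cells treated with ICM: ICM 1-2 and ICM 3-4 carried no knockdown, and siSRRM2, siBANF1 and siCTCF are labelled as knockdowns of SRRM2, BANF1 and CTCF. The labels name no siRNA for the WT and ICM libraries. The ICM libraries were kept as 2 groups because ICM 3-4 and siCTCF have labels of another form from the rest, with cell line fields that read IMR91 to IMR94. No WT library has labels of that form, so in ICM 3-4 against WT the treatment and the set cannot be told apart. siSRRM2 and siBANF1 were compared with ICM 1-2, and siCTCF with ICM 3-4. Nothing in the labels says that the libraries of a group came from separate cultures, so p-values measure only the spread between these libraries, which may be technical.

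Constitutive heterochromatin is marked by methylation of histone H3 at lysine 9. The SUV39H enzymes write this mark, and HP1 proteins bind it and recruit further silencing factors. Facultative silencing of developmental genes is written on lysine 27 of the same histone by Polycomb repressive complex 2 (PRC2), in which EZH2 or its paralogue EZH1 is the catalytic subunit and SUZ12 and EED are required partners. DNMT1 copies DNA methylation onto the new strand after replication, and UHRF1 brings it to hemimethylated sites. Several of these genes are known targets of E2F factors, which drive transcription as cells enter S phase, and loss of EZH2 and DNMT1 has long been studied in senescent fibroblasts, where EZH2 restrains the CDKN2A locus.

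Library depth was 22336161 to 58257456 gene counts, and the members had 69 to 9405 counts in a library. HMGB2 levels were 3.18 and 3.52 CPM (counts scaled to 1000000 gene counts in each library) in the siHMGB2 libraries, compared with 27.7 and 28.0 CPM in WT. CTCF levels were 71.5 and 23.0 CPM in siCTCF, compared with 94.9 and 91.9 CPM in ICM 3-4. Libraries labelled siSRRM2 had 76.1 and 76.4 CPM of SRRM2, but those labelled siBANF1 had less, 59.0 and 17 CPM, compared with 238 and 112 CPM in ICM 1-2. The same siBANF1 libraries had 17 and 36.7 CPM of BANF1, not below the 13.5 and 32.7 CPM in ICM 1-2, and those labelled siSRRM2 had 34.2 and 33.3 CPM of it. BANF1 thus goes against the siBANF1 label, and the names of the deposited files give these 4 libraries the other of the 2 knockdowns. The labels were kept, so every siSRRM2 or siBANF1 value below belongs to the libraries labelled so, and which gene was targeted in them is not settled. ICM 1 and siBANF1 1 stood apart from their partners: 16.3% and 18.4% of their reads fell in no annotated feature, against 2.69% to 8.87% in the other 12 libraries. All 6 ICM-treated libraries with labels like WT (ICM 1-2, siSRRM2 and siBANF1) also stood apart from WT: small noncoding RNA genes, such as snRNA and snoRNA genes, held 3.23% to 6.12% of their gene counts, against 0.005% to 0.008% in the other 8 libraries, and 14.5% to 20.7% of their reads aligned to more than 1 place, against 7.15% to 8.51%. These shares move with ICM 1-2 against WT, and their part in its results was not tested. Fibroblast markers were present in every group (12 of 12 genes at 1 CPM or more), but their summed level ranged from 2055 CPM in siCTCF to 36570 CPM in siHMGB2. Summed epithelial markers reached 1.21 CPM, endothelial markers 10.9 CPM and immune markers 13.3 CPM at most. Among these markers SFTPC, KRT5 and CD3E were at 0 in all 14 libraries, but others were detected. The epithelial marker CLDN4 reached 1.18 CPM (ICM 4) and the endothelial marker KDR 8.13 CPM (siHMGB2 1). CD14, an immune marker, reached 12.95 CPM (ICM 1).

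Promoters are shown for the members that were low in every ICM-treated library, and for CBX5, EED and SUZ12, which were not. Each window runs from 250 bases before to 50 bases after the RefSeq transcription start on GRCh38.p14, in the direction of the gene, and all 10 members matched an entry. The E2F words searched on both strands were TTTCCCGC, TTTGGCGC, TTTCGCGC and TTTGCCGC, and the CCAAT box, the word that the factor NF-Y binds, was searched as CCAAT. Capitals mark the matches to either motif, read as the reverse complement where the match lies on the other strand. UHRF1 lies on the plus strand (window chr19:4909251-4909550), EZH2 on the minus strand (chr7:148884242-148884541), DNMT1 on the minus strand (chr19:10194904-10195203) and CBX3 on the plus strand (chr7:26201193-26201492). CBX5 (chr12:54280073-54280372, minus strand) and EED (chr11:86244503-86244802, plus strand) were not low in every ICM-treated library and hold none of the E2F words searched. SUZ12 (chr17:31936757-31937056, plus strand) was not low in every ICM-treated library either, but holds one.
UHRF1: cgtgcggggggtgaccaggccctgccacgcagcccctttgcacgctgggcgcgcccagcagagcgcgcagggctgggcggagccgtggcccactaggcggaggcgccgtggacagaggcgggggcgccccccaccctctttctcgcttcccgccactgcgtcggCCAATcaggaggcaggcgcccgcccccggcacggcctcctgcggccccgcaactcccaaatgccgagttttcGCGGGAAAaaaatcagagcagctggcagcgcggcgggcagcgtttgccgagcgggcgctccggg
EZH2: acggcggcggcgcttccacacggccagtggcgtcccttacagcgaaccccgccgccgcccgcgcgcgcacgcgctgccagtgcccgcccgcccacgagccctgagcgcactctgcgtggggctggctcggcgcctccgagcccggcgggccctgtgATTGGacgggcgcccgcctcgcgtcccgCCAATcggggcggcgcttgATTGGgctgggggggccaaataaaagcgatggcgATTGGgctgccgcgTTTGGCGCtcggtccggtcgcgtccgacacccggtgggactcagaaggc
DNMT1: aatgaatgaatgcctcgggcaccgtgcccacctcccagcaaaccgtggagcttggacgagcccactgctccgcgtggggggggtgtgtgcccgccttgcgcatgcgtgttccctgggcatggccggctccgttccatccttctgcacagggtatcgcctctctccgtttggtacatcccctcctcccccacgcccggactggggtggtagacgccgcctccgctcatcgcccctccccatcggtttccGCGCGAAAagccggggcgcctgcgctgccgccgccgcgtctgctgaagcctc
CBX3: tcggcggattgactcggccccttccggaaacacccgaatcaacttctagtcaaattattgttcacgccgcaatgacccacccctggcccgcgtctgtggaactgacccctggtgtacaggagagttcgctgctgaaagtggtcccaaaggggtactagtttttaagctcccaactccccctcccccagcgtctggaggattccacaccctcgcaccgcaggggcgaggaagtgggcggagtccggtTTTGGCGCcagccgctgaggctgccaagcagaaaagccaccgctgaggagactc
CBX5: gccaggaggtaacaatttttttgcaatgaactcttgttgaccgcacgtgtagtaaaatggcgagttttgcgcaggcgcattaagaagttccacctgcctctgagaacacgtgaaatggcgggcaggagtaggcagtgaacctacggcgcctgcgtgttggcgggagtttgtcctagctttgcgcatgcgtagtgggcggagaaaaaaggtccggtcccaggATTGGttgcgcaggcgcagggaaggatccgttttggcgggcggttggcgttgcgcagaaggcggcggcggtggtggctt
EED: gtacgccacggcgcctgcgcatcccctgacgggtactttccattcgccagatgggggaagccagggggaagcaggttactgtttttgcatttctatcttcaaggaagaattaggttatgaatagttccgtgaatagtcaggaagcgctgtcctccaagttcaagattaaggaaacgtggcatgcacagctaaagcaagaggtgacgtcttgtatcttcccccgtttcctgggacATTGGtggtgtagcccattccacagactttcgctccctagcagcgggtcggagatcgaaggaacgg
SUZ12: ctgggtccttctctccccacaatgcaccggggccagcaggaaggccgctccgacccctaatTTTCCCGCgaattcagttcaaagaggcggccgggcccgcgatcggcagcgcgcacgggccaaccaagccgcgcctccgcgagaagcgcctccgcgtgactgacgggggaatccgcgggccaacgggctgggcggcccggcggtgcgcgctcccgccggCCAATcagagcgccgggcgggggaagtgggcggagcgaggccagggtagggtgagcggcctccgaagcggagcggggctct
An E2F word was found in 5 of the 10 members, against 703 of 15843 promoters of protein-coding genes (4.44%). It lay within 14 bases of the start in UHRF1, EZH2, DNMT1 and CBX3, and at -189 to -182 in SUZ12. The CCAAT word was found in 5 of 10 members (EZH2, with 4 copies, and CBX5, SUZ12, EED and UHRF1), against 36.4% of promoters. A further cell cycle word, the CHR element TTTGAA, was found in SUV39H2 and SUZ12, 2 of 10 members against 12.1% of promoters. The median GC content of the 15843 windows was 62.7%, and the printed windows ran from 52.3% in EED to 74.7% in EZH2. SUV39H2 holds no E2F word, and it was low in every ICM-treated library only on another scale, given below. Only exact words were searched, so E2F-like words that differ by a letter were not counted. CBX5 holds such a word, TTTGGCGG, near its start, so it is not a promoter without E2F-like words. A match describes the letters of the window and shows no binding. Whether these words have a part in the levels was not tested.

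**Figure D1:**
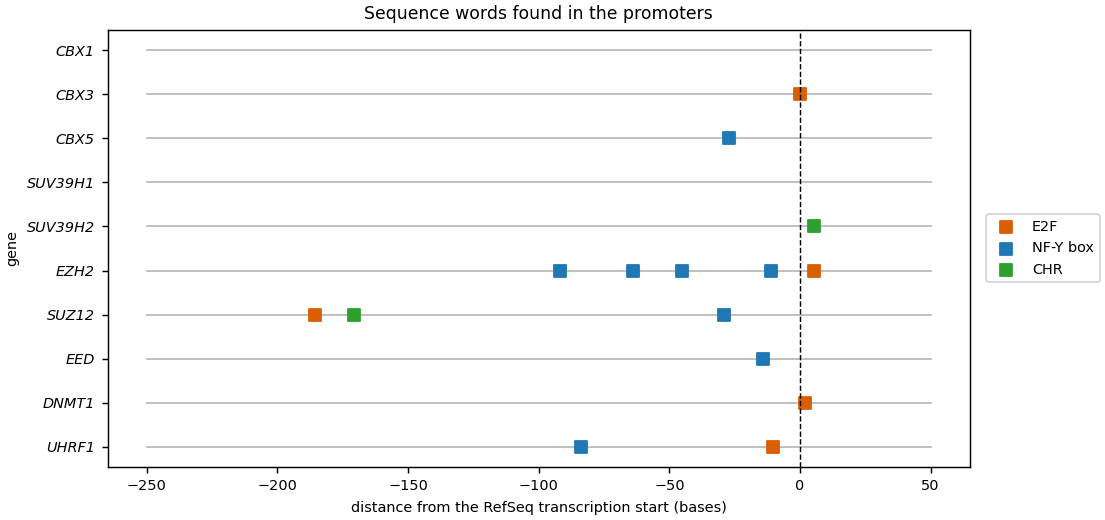
Position of E2F, CCAAT (NF-Y box) and CHR words (coloured squares) in the promoter of each member (rows), as distance in bases from the RefSeq transcription start (dashed line). The E2F words of CBX3, EZH2, DNMT1 and UHRF1 lie within 14 bases of the start and that of SUZ12 lies near the far end of the window.

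Across the series, 4 of the 10 members were lower in all 10 ICM-treated libraries than in both WT libraries: UHRF1, EZH2, DNMT1 and CBX3. Among all genes tested, 12.4% had this pattern. No member was higher in all 10. With CPM over TMM-scaled library sizes (TMM is the trimmed mean normalization of edgeR) SUV39H2 joined the 4, and with CPM over protein-coding counts the same 4 were found. The share of all genes is given only for CPM and for lower levels, so the other counts have no share to be set against. The remaining members crossed the WT levels in at least 1 ICM-treated library, so the silencing genes did not move together. None of the 4 passed the test in siHMGB2 against WT, but CBX3 and DNMT1 were below both WT libraries in both siHMGB2 libraries too. In bulk RNA, fewer cells that express a gene and less of its RNA in each cell cannot be told apart.

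**Figure D2:**
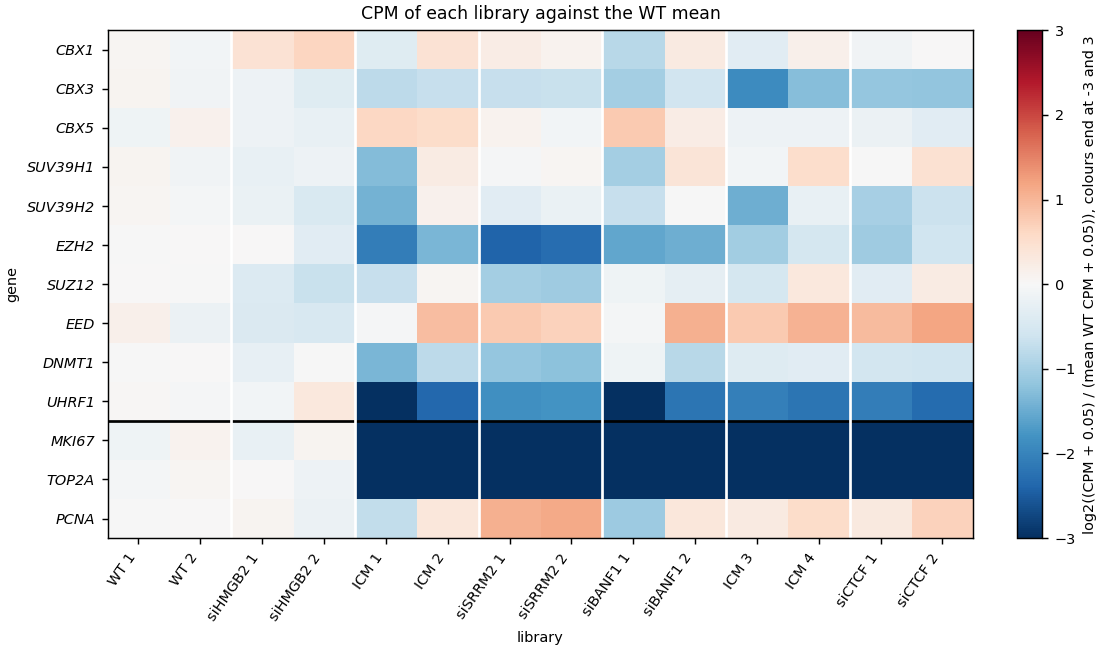
Colour map of log2((CPM + 0.05) / (mean WT CPM + 0.05)) for the 10 members and 3 proliferation genes (rows) in each library (columns), with colours that end at -3 and 3. UHRF1, EZH2, DNMT1 and CBX3 are blue in all 10 ICM-treated libraries, whereas EED and CBX5 are red in several of them and PCNA does not follow MKI67 and TOP2A.

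**Figure D3:**
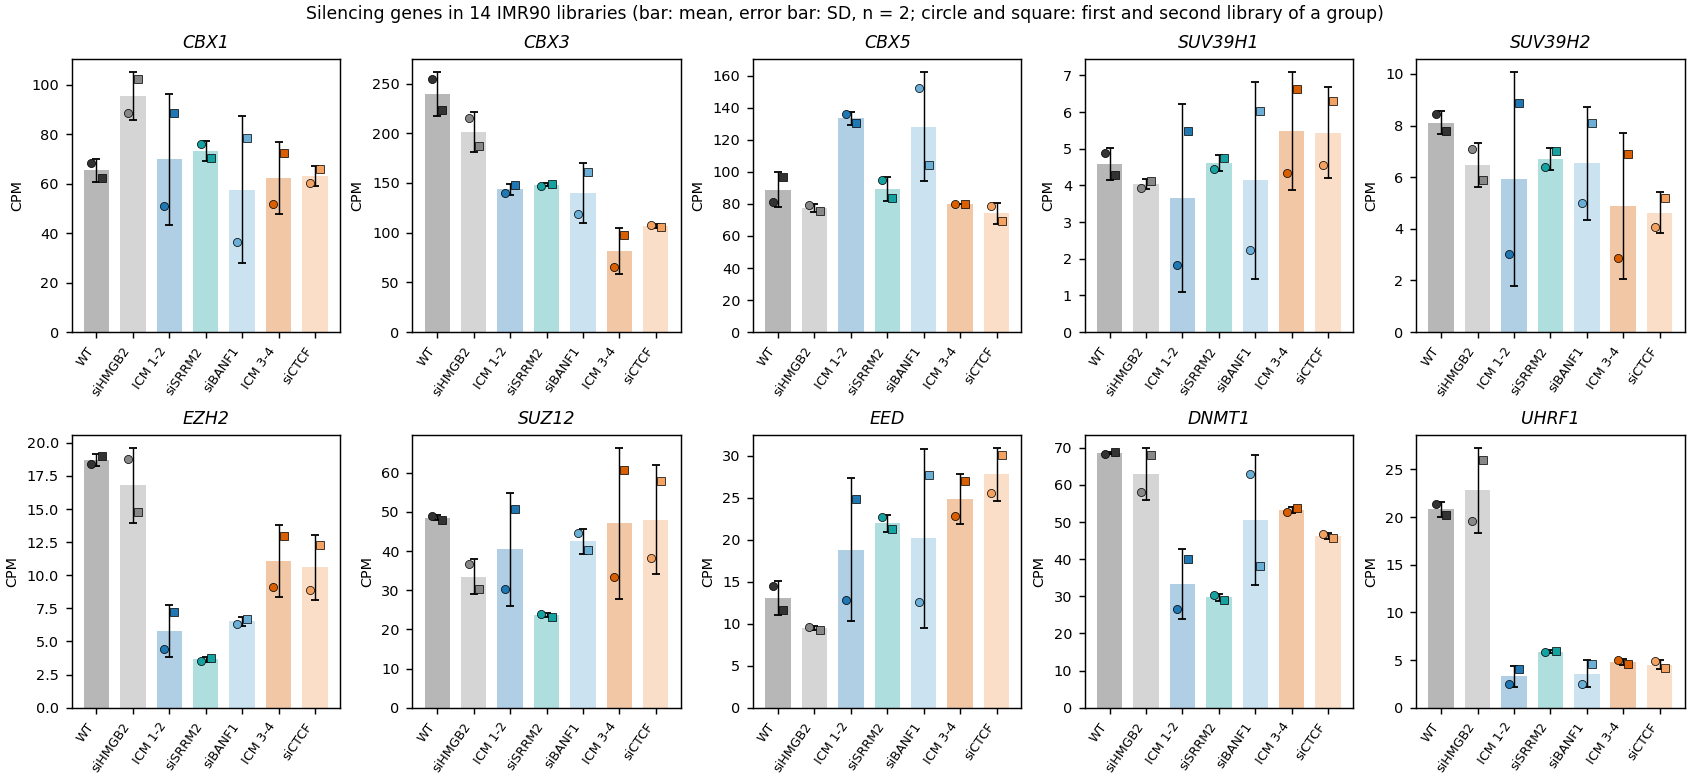
CPM of each member by group, with the bar at the mean, the error bar at the SD (n = 2) and a circle and a square for the first and second library. The libraries of ICM 1-2 and siBANF1 lie far apart for SUV39H1, SUV39H2, EED and CBX1, while those of siSRRM2 nearly coincide.

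The 3 HP1 genes behaved differently. CBX3, which encodes HP1 gamma, found in euchromatin as well as heterochromatin, measured 255 and 224 CPM in WT but 140 and 148 CPM in ICM 1-2. Lower still were ICM 3-4, with 65.2 and 98.1 CPM, and siCTCF, with 108 and 106 CPM. siSRRM2 had 147 and 149 CPM, and siBANF1 had 118 and 161 CPM. Every ICM-treated library was thus below both WT libraries, and every library of ICM 3-4 and siCTCF was below the lowest library of the other set. The siHMGB2 libraries, without ICM, were also below both WT libraries, at 215 and 187 CPM. CBX3 fell in ICM 3-4 against WT (log2 fold change -1.75, SE 0.22, 3.37-fold lower, adjusted p = 0.000574). In ICM 1-2 the log2 fold change was -0.82 (SE 0.30, adjusted p = 0.22). The direct difference of ICM 3-4 from ICM 1-2 was -0.97 on the log2 scale (SE 0.42, adjusted p = 0.223). With a spread shared by all 14 libraries it was -0.93 (adjusted p = 0.0193), and CBX3 was then also called lower in ICM 1-2 against WT (-0.87, adjusted p = 0.0324). Exons of CBX3 and HNRNPA2B1 overlap over 368 bases on opposite strands, and whether the counting used strand is not given in the sources used here.

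CBX5, which encodes HP1 alpha, the form most concentrated at pericentric heterochromatin, stood on opposite sides of WT in the 2 ICM groups. From 81.1 and 96.5 CPM in WT it stood higher in ICM 1-2, with 136 and 130 CPM, and lower in ICM 3-4, with 79.7 CPM in both libraries. ICM 1-2 was above and ICM 3-4 below both WT libraries. Neither difference from WT passed the test (ICM 1-2 log2 fold change 0.51, SE 0.30, adjusted p = 0.38; ICM 3-4 -0.35, SE 0.17, adjusted p = 0.131). The log2 fold change of ICM 3-4 against ICM 1-2 was -0.89 (SE 0.40, adjusted p = 0.239), and it passed the test with the spread of all 14 libraries (-0.85, adjusted p = 0.0405). In siBANF1 CBX5 was at 152 and 104 CPM, and in siSRRM2 at 94.8 and 84.0 CPM. It was also below both WT libraries in siCTCF, at 78.7 and 69.6 CPM. The same held without ICM in siHMGB2, at 79.5 and 75.9 CPM.

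CBX1, which encodes HP1 beta, was the only member called higher in siHMGB2 against WT. Its siHMGB2 libraries had 88.5 and 102 CPM and its WT libraries 68.6 and 62.2 CPM, with no overlap (log2 fold change 0.61, SE 0.14, 1.52-fold, adjusted p = 0.0012). The call was lost without WT 2 (0.54, adjusted p = 0.111) and with the spread of all 14 libraries (0.60, adjusted p = 1.0). In some ICM-treated groups CBX1 differed between partner libraries: ICM 1 had 51.0 CPM but ICM 2 had 88.7 CPM, siBANF1 1 had 36.6 CPM but siBANF1 2 had 78.6 CPM, and ICM 3-4 had 52.0 and 72.5 CPM. Partners were closer in siSRRM2, at 76.2 and 70.5 CPM, and in siCTCF, at 60.4 and 66.1 CPM. Its log2 fold change against WT was -0.02 (SE 0.32, adjusted p = 0.982) in ICM 1-2 and -0.27 (SE 0.20, adjusted p = 0.287) in ICM 3-4.

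The H3K9 methyltransferases were low, and in ICM 1-2 they varied more between partner libraries than the other members. SUV39H1 was at 4.89 and 4.28 CPM in WT, 1.84 and 5.47 CPM in ICM 1-2, 4.35 and 6.62 CPM in ICM 3-4, 2.23 and 6.04 CPM in siBANF1, and 4.45 and 4.76 CPM in siSRRM2. The second library was 2.97 times the first in ICM 1-2 and 2.71 times the first in siBANF1, against 1.07 times in siSRRM2. SUV39H2, its paralogue, was at 8.43 and 7.79 CPM in WT, 3.01 and 8.86 CPM in ICM 1-2, 2.89 and 6.90 CPM in ICM 3-4, and 4.07 and 5.19 CPM in siCTCF. ICM 1-2 spanned the WT values for both genes, and neither passed the test on the compared libraries in any of the 7 comparisons. SUV39H2 was nearest to it in ICM 3-4 against WT (log2 fold change -0.94, SE 0.39, adjusted p = 0.0833), where both ICM libraries were below both WT libraries. It passed there with no filter on low counts (-0.99, adjusted p = 0.012) and without ICM 4 (-1.64, adjusted p = 3.27e-05). The share of reads outside annotated features was highest in ICM 1 and siBANF1 1, the libraries in which SUV39H1 was lowest, and its part in these values was not tested.

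Within PRC2 the catalytic subunit and its partners diverged. EZH2 measured 18.4 and 19.0 CPM in WT, and siHMGB2 was similar with 18.8 and 14.8 CPM. Levels dropped to 4.41 and 7.20 CPM in ICM 1-2, 3.53 and 3.79 CPM in siSRRM2, and 6.29 and 6.73 CPM in siBANF1. ICM 3-4, with 9.12 and 13 CPM, and siCTCF, with 8.87 and 12.3 CPM, lay between these groups and WT without overlap. EZH2 fell in ICM 3-4 against WT (log2 fold change -0.96, SE 0.24, 1.95-fold lower, adjusted p = 0.0132), and the call was lost without WT 1 (adjusted p = 0.101) or WT 2 (adjusted p = 0.115). In ICM 1-2 it was lower by more but outside the threshold (-1.80, SE 0.35, adjusted p = 0.114), and inside it with the spread of all 14 libraries (-1.84, adjusted p = 0.00396). The direct difference between the 2 ICM groups was 0.80 (SE 0.51, adjusted p = 0.381).

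EED, the subunit that binds the methylated histone tail, was the only member called higher with ICM. Its WT libraries had 14.5 and 11.7 CPM, compared with 22.8 and 27 CPM in ICM 3-4 and 25.5 and 30.02 CPM in siCTCF, with no overlap. It rose in ICM 3-4 against WT (log2 fold change 0.73, SE 0.23, 1.65-fold, adjusted p = 0.0308). That call was lost without WT 1 (adjusted p = 0.12), without WT 2 (adjusted p = 0.349) and with the spread of all 14 libraries (0.68, adjusted p = 0.154). In ICM 1-2 EED was at 12.8 and 24.9 CPM, so that ICM 1 lay within the WT range and ICM 2 above it. siBANF1 showed the same split, at 12.6 and 27.7 CPM.

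SUZ12, the zinc finger subunit that holds the complex together, measured 48.9 and 48.0 CPM in WT but 36.6 and 30.3 CPM in siHMGB2. It fell with the knockdown (log2 fold change -0.47, SE 0.14, 1.39-fold lower, adjusted p = 0.0201), a call lost without WT 1 (adjusted p = 0.301), without WT 2 (adjusted p = 0.177), without siHMGB2 2 (-0.35, adjusted p = 0.14) and with the spread of all 14 libraries (-0.48, adjusted p = 1.0). In ICM 1-2 it was at 30.2 and 50.7 CPM and in ICM 3-4 at 33.4 and 60.7 CPM, in each case on both sides of WT. The lowest group was siSRRM2, at 24.0 and 23.2 CPM, below every other library, with a log2 fold change against ICM 1-2 of -0.74 (SE 0.30, adjusted p = 0.651). SUZ12 has 2 pseudogene copies, which held 6.38% to 21.0% of the counted reads of the gene and its copies. Reads that aligned to more than 1 place were not counted, so its counts are uncertain to an extent that this share does not give.

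Levels of different genes were compared per kilobase of the longest principal transcript in GENCODE v29. On this scale EZH2 was above EZH1 in untreated cells and below it in all 10 ICM-treated libraries. The order in untreated cells depends on the lengths used, 2639 bases for EZH2 and 4623 bases for EZH1. Which transcripts these cells used is not known. Before division by length, WT had 618 and 693 counts of EZH2 and 771 and 819 counts of EZH1. EZH1, the catalytic paralogue associated with non-dividing cells, was singled out after its values were seen. In WT EZH2 measured 6.98 and 7.20 CPM per kilobase and EZH1 measured 4.97 and 4.86 CPM per kilobase. The ratio of EZH2 to EZH1 was 1.40 and 1.48 in WT and 1.51 and 1.08 in siHMGB2. It was 0.224 and 0.455 in ICM 1-2, 0.319 and 0.340 in siSRRM2, 0.212 and 0.364 in siBANF1, 0.603 and 0.551 in ICM 3-4, and 0.594 and 0.574 in siCTCF. EZH1 itself did not pass the test in ICM 1-2 (log2 fold change 0.38, SE 0.32, adjusted p = 0.526) or in ICM 3-4 (0.37, SE 0.23, adjusted p = 0.22) against WT. SUZ12 stayed above EZH2 in each of the 14 libraries on this scale, at 10.9 and 10.7 CPM per kilobase in WT. EED was below EZH2 in both WT libraries, at 6.54 and 5.25 CPM per kilobase, and above it in all 10 ICM-treated libraries.

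**Figure D4:**
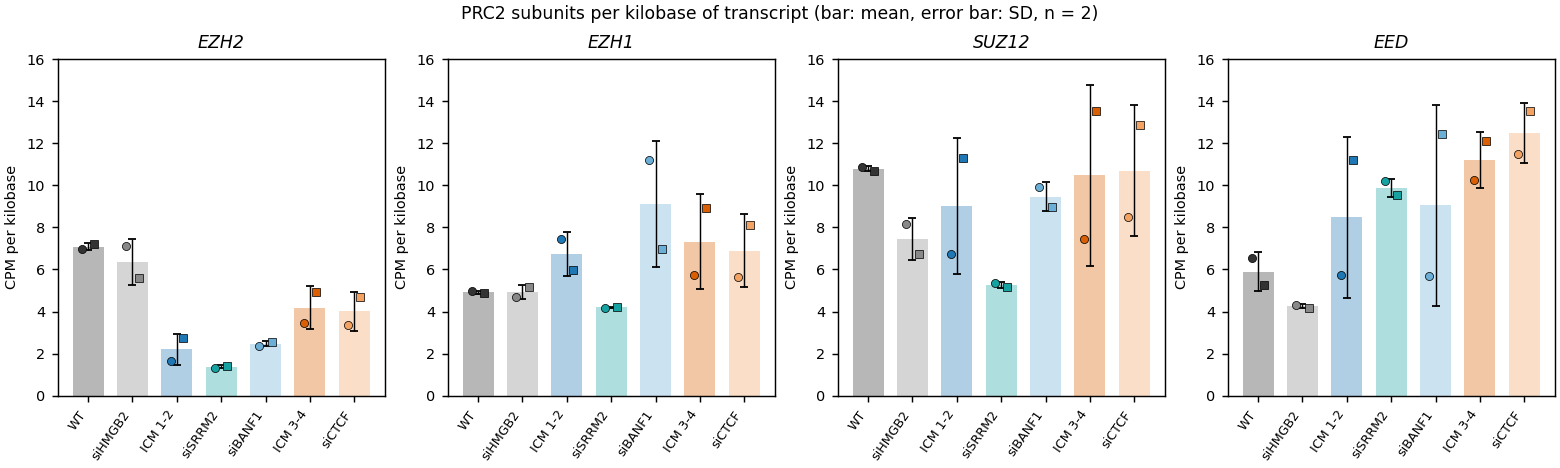
CPM per kilobase of transcript of EZH2, EZH1, SUZ12 and EED by group, with the bar at the mean, the error bar at the SD (n = 2) and the libraries as points. EZH2 is at 6.98 and 7.20 in WT and below 5 in every ICM-treated library, where EZH1 and EED are higher than EZH2.

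The DNA methylation pair held the member with the widest range. UHRF1 measured 21.3 and 20.3 CPM in WT, and siHMGB2 was similar with 19.6 and 26.0 CPM. Levels dropped to 2.50 and 4.05 CPM in ICM 1-2, 4.98 and 4.53 CPM in ICM 3-4, 2.54 and 4.55 CPM in siBANF1, 4.88 and 4.18 CPM in siCTCF, and 5.82 and 5.97 CPM in siSRRM2. No ICM-treated library came near the untreated ones. UHRF1 fell in ICM 3-4 against WT (log2 fold change -2.32, SE 0.24, 5.0-fold lower, adjusted p = 0.000264). In ICM 1-2 it was 6.83-fold lower (-2.77, SE 0.37) but at an adjusted p of 0.0708, and with the spread of all 14 libraries at 0.000995 (-2.81). The 2 ICM groups did not differ by the test (0.42, SE 0.55, adjusted p = 0.692).

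DNMT1 fell less. It was at 68.4 and 68.8 CPM in WT, 58.0 and 68.0 CPM in siHMGB2, 26.6 and 40.0 CPM in ICM 1-2, 52.8 and 53.8 CPM in ICM 3-4, 46.9 and 45.6 CPM in siCTCF, and 30.4 and 29 CPM in siSRRM2. In siBANF1 it was at 63.1 and 38.3 CPM, and siBANF1 1 lay nearest to WT of the 10 ICM-treated libraries. DNMT1 fell in ICM 3-4 against WT (log2 fold change -0.56, SE 0.16, 1.47-fold lower, adjusted p = 0.025). The call was lost without WT 1 (adjusted p = 0.234), without WT 2 (adjusted p = 0.233), with total count scaling (-0.36, adjusted p = 0.0992) and with the spread of all 14 libraries (-0.60, adjusted p = 0.125). In ICM 1-2 the log2 fold change was -1.15 (SE 0.29, adjusted p = 0.147), and -1.19 with the spread of all 14 libraries (adjusted p = 0.0235). DNMT1 shares 83 bases of exon with S1PR2 on the same strand, and S1PR2 stood at 8.93 to 23.8 CPM.

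By comparison, ICM 3-4 against WT called the most members: 4 of 10 lower (UHRF1, CBX3, EZH2 and DNMT1) and 1 higher (EED), where 23.5% of all 19126 genes were called lower and 23.5% higher. Over both directions the share of members called was close to that of all genes. The median log2 fold change of the members was -0.45, against 0.00 for all genes; scaling by total counts raised the latter to 0.18. Among the other genes of each pathway, calls went in both directions. Of 25 tested genes of H3K9 methylation and HP1, 4 rose and 8 fell, among them KMT5C, an H4K20 methyltransferase (-1.74, adjusted p = 0.00312), and KDM3B, an H3K9 demethylase (1.02, adjusted p = 0.00189). Of 11 tested genes of PRC2 and H3K27 methylation, 4 rose and 3 fell, with the accessory subunit JARID2 at -1.62 (adjusted p = 0.000356) and the H3K27 demethylase KDM6B at 1.08 (adjusted p = 0.00318). With the spread of all 14 libraries neither of these passed (JARID2 -1.67, adjusted p = 0.0536, and KDM6B 1.03, adjusted p = 0.35). Of 26 tested PRC1 genes 8 rose and 4 fell, with the chromodomain gene CBX2 at -1.44 (adjusted p = 0.00436) and BCORL1 at 1.39 (adjusted p = 0.00106). CBX2 did not pass without WT 2 (-1.37, adjusted p = 0.0524). Of 20 tested genes of DNA methylation 5 rose and 9 fell. CDCA7, which works with the remodeller HELLS, had 0.0837 and 0.118 CPM in ICM 3-4 and 6.29 and 5.05 CPM in WT (-5.94, adjusted p = 0.000103), and GADD45A, a stress gene also tied to demethylation, had 231 and 380 CPM where WT had 29.5 and 28.7 CPM (3.19, adjusted p = 9.72e-05).

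Genes that these pathways are known to silence were mostly too low to test. Of 40 listed Polycomb target genes 8 were tested and 1 rose in ICM 3-4 against WT, DLX2, from 1.04 and 0.768 CPM to 2.55 and 2.33 CPM (1.23, adjusted p = 0.036). The DLX2 call was lost with DESeq2 (adjusted p = 0.0602), with the spread of all 14 libraries (adjusted p = 0.121) and without WT 1, WT 2 or ICM 3 (adjusted p = 0.111, 0.272 and 0.0652). CDKN2A, the locus of p16, measured 23.5 and 23.1 CPM in WT, 18.2 and 18.9 CPM in ICM 1-2 and 23.2 and 8.99 CPM in ICM 3-4, and did not pass either test (adjusted p = 0.45 and 0.188). Of 30 germline genes silenced by DNA methylation 2 were tested and 1 rose, CTAG2 (1.17, adjusted p = 0.00887), a call lost with the spread of all 14 libraries (1.12, adjusted p = 0.215) and without WT 2 (0.95, adjusted p = 0.124). Of 46 tested KRAB zinc finger genes, many of which recruit H3K9 methylation, 6 rose and 11 fell, with ZNF493 at -2.71 (adjusted p = 0.00351) and ZNF263 at 1.94 (adjusted p = 0.000159).

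In ICM 1-2 against WT no member was called in the fit of the compared libraries, which called 0.0837% of all genes higher and 0.0889% lower. At an unadjusted p under 0.05 the same 4 members (UHRF1, EZH2, DNMT1 and CBX3) were lower, beside 1854 genes in all. The fit of all 14 libraries called those 4 lower, where 6.86% of all genes were called lower, and DESeq2 called 2 of them (EZH2 and UHRF1), where it called 5.21% of its genes lower. The members' median log2 fold change was -0.52, against 0.15 for all genes. The result depended on which ICM libraries entered: without ICM 1 the fit called 2 members higher (CBX5 and EED) and 4 lower, where 27.9% of all genes were called higher and 28.8% lower. Without ICM 2 it called 1 member higher (CBX5) and 7 lower, where 22.4% of all genes were called higher and 22.0% lower. The lists of H3K9, PRC2, PRC1 and DNA methylation genes had no call by edgeR on the compared libraries. The fit of all 14 libraries called 2 of 11 tested PRC2, 5 of 26 PRC1 and 3 of 20 DNA methylation genes. It called none of the 25 H3K9 genes, where it called 13.5% of all genes. DESeq2 called 1, 2 and 2 and no H3K9 gene, where it called 9.79% of its genes. ICM 3-4 and ICM 1-2 were compared with the same WT libraries, so their values stand side by side and are not independent.

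ICM 3-4 against ICM 1-2 called no member, where 0.497% of all genes were called higher and 0.753% lower. No member was higher or lower at an unadjusted p under 0.05, and DESeq2 called none. The fit of all 14 libraries called CBX3 and CBX5 lower, where 11.0% of all genes were called lower. Of the pathway lists, BCORL1 was higher in ICM 3-4 (3.10, adjusted p = 0.0359), and TET1, which oxidizes methylated cytosine, and CDCA7L were lower (-5.17, adjusted p = 0.0413, and -3.37, adjusted p = 0.0451). Among protein-coding genes only, BCORL1, TET1 and CDCA7L did not pass (adjusted p = 0.0899, 0.0918 and 0.0918).

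**Figure D5:**
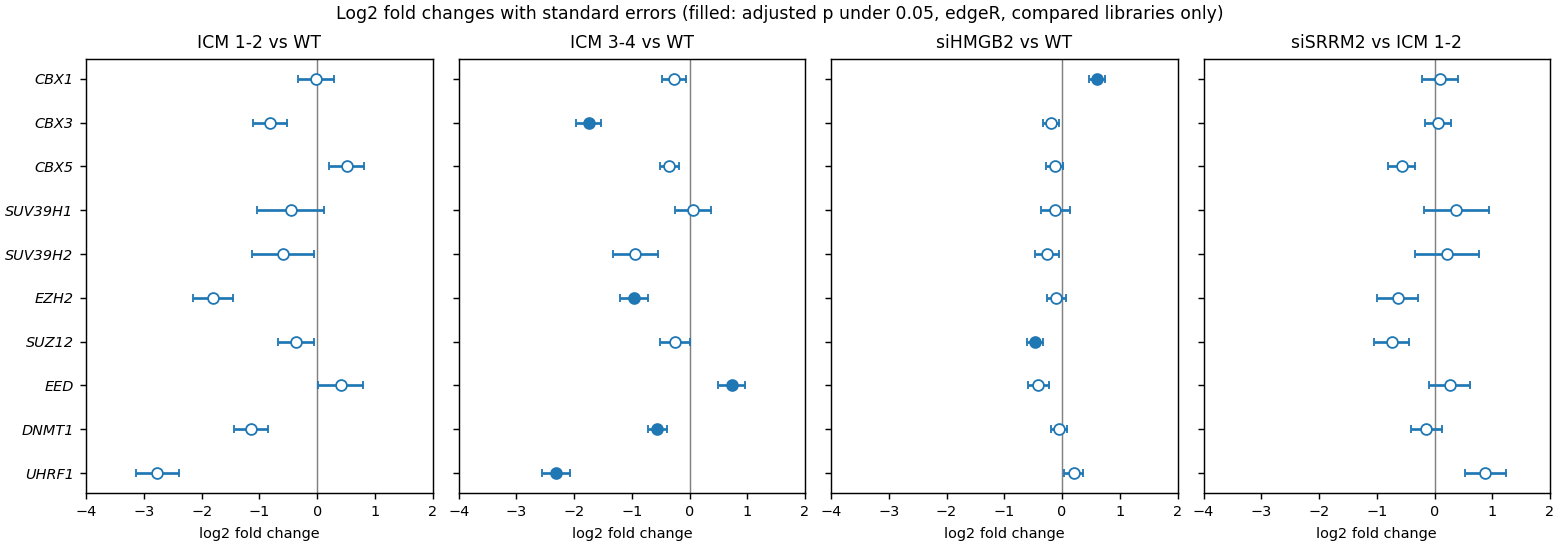
Log2 fold change of each member (rows) in 4 comparisons (panels), with bars of 1 standard error and filled points where the adjusted p was under 0.05. UHRF1, EZH2, CBX3 and DNMT1 lie left of 0 in both ICM comparisons, with filled points in ICM 3-4 and open ones in ICM 1-2.

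In siHMGB2 against WT, without ICM, 1 of 10 members was called higher (CBX1) and 1 lower (SUZ12), where 6.03% of all genes were called higher and 4.71% lower. In all, 1154 genes were higher and 901 lower, and 939 and 1184 with total count scaling. The members' median was -0.13, against 0.00 for all genes, so that the whole group shifted little. UHRF1, EZH2 and DNMT1 had log2 fold changes of 0.20 (SE 0.16, adjusted p = 0.555), -0.10 (SE 0.16, adjusted p = 0.831) and -0.06 (SE 0.14, adjusted p = 0.897). CBX3 was at -0.19 (SE 0.14, adjusted p = 0.531), and both siHMGB2 libraries were below both WT libraries for CBX3 and DNMT1. EED was at 9.61 and 9.30 CPM, below both WT libraries (-0.41, SE 0.18, adjusted p = 0.161). Among the other genes of the pathway lists, 1 H3K9 gene fell (the remodeller SMARCAD1, -0.53, adjusted p = 0.00616), no PRC2 gene other than SUZ12 was called, and 1 PRC1 gene fell (CBX6, -0.76, adjusted p = 0.000116). Of the DNA methylation genes GADD45A rose (0.73, adjusted p = 0.000293) and TDG, a DNA glycosylase that acts in demethylation, fell (-0.46, adjusted p = 0.0238). Of the 8 tested Polycomb targets, CDKN2B (p15), at 42.3 and 44.1 CPM against 20.3 and 18.6 CPM, and CDKN2A rose (1.21, adjusted p = 1.3e-08, and 0.44, adjusted p = 0.0417), and PITX1 fell (-0.45, adjusted p = 0.0328). Without WT 1 or without WT 2 the calls of SMARCAD1 (adjusted p = 0.159 and 0.0989), TDG (0.231 and 0.306), CDKN2A (0.372 and 0.365) and PITX1 (0.368 and 0.192) were lost. CDKN2A also did not pass with total count scaling (0.38, adjusted p = 0.0957) or with no filter on low counts (0.44, adjusted p = 0.0689). Nor did it pass with DESeq2 (0.44, adjusted p = 0.0616) or with same-numbered libraries as a block in edgeR (0.44, adjusted p = 0.0524). The fit of all 14 libraries called no gene in this comparison.

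In the comparisons labelled as knockdowns on top of ICM, edgeR on the compared libraries, without pairing, called no member and no other gene. In siSRRM2 against ICM 1-2 it called 0.0% of all genes in either direction, with 765 genes higher and 694 lower at an unadjusted p under 0.05 and no member among them. The fit of all 14 libraries called 19 genes higher and 15 lower, DESeq2 called 103 higher and 101 lower, and neither called a member. The largest member values there were UHRF1 at 0.88 (SE 0.36), SUZ12 at -0.74 (SE 0.30), EZH2 at -0.64 (SE 0.36) and CBX5 at -0.57 (SE 0.24), the lowest adjusted p being 0.651. These rest on which ICM library is the control: without ICM 1 the fit called 1 member higher and 6 lower, where 26.1% of all genes were called higher and 26.4% lower, and without ICM 2 it called 5 higher and 2 lower, where 32.2% were called higher and 30.7% lower. The siSRRM2 libraries lay closer to each other than the libraries of any other group. Their median squared difference was 1.07 in units of counting variance, against 2.83 in WT. UHRF1 was called higher and CBX5 and SUZ12 lower in both of these fits.

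In siBANF1 against ICM 1-2 the share called in either direction was likewise 0.0%, with 15 genes higher and 19 lower at an unadjusted p under 0.05, no member among them, and no gene called by DESeq2 or by the fit of all 14 libraries. Its largest member value was DNMT1 at 0.64 (SE 0.50, adjusted p = 1.0). With same-numbered libraries as a block, edgeR called SRRM2 lower (-2.36, adjusted p = 0.0173). DNMT1 was then at 0.60 (SE 0.29, adjusted p = 0.676), and no member was called. Across genes siBANF1 2 lay much nearer to ICM 2 than to its partner, with a median squared difference in units of counting variance of 2.63 against 30.3. On the log scale 8 of 10 members were nearer to ICM 2, against 83.4% of all genes tested, and the exceptions were EZH2 and SUZ12. SUV39H1 measured 6.04 CPM in siBANF1 2, 5.47 CPM in ICM 2 and 2.23 CPM in siBANF1 1. In siCTCF against ICM 3-4 the share was also 0.0%, with 13 genes higher and 18 lower at an unadjusted p under 0.05, no member among them, and no gene called by DESeq2 or by the fit of all 14 libraries. The largest member value was CBX3 at 0.41 (SE 0.22, adjusted p = 1.0). The other 9 members lay between -0.19 and 0.17. The fit of the compared libraries did not call CTCF itself either (-0.95, SE 0.50). With ICM 3 and siCTCF 1, and ICM 4 and siCTCF 2, as blocks, edgeR called CTCF lower (-1.16, adjusted p = 2.92e-16). CBX3 was then at 0.43 (SE 0.12, unadjusted p = 0.0002, adjusted p = 0.273), and no member was called. siCTCF 1 resembled ICM 3 and siCTCF 2 resembled ICM 4, as EZH2 shows (8.87 and 9.12 CPM, then 12.3 and 13 CPM).

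Proliferation genes moved with the members that were low after ICM, and their part in the result was not tested. Their summed level over 40 genes was 883 and 891 CPM in WT and 849 CPM in both siHMGB2 libraries, and 218.5 to 433 CPM in the 10 ICM-treated libraries. MKI67, a marker of cycling cells, measured 32.8 and 38.8 CPM in WT but 1.09 CPM or less in all 10. In ICM 3-4 against WT 33 of the 40 fell and 1 rose (CDC6, 1.15, adjusted p = 0.0169, and 0.278 with the spread of all 14 libraries), with a median log2 fold change of -3.08. In ICM 1-2 5 of 40 fell with a median of -2.73, among them TOP2A (-3.99, adjusted p = 0.0364). This count was 29 in the fit of all 14 libraries and 28 with DESeq2, but 0 with a minimum mean of 1 CPM and 0 among protein-coding genes only, where TOP2A had adjusted p-values of 0.0675 and 0.108. UHRF1 came closest to this size of change among the members. PCNA, the replication clamp, measured 81.5 and 83.4 CPM in WT and between 38.8 and 181 CPM with ICM, highest in siSRRM2. Fibroblast markers also moved with ICM 3-4, where 10 of 12 fell against WT with a median of -2.74, and their part in the result was likewise not tested.

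In the order of group means, neighbours often did not differ beyond their spread. For UHRF1 the order was siHMGB2, WT, siSRRM2, ICM 3-4, siCTCF, siBANF1 and ICM 1-2, with gaps between WT and siSRRM2 and between siSRRM2 and ICM 3-4 and overlap between the other neighbours. For EZH2 it was WT, siHMGB2, ICM 3-4, siCTCF, siBANF1, ICM 1-2 and siSRRM2, with overlap of WT with siHMGB2, of ICM 3-4 with siCTCF and of siBANF1 with ICM 1-2. For SUV39H1 all neighbouring groups overlapped. For CBX3 the untreated groups were highest and ICM 3-4 lowest, and only siSRRM2, ICM 1-2 and siBANF1 overlapped with a neighbour.

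Patterns over the libraries were compared between genes as the root-mean-square difference of log2 values, each gene centred on its mean over the 14 libraries, among the 9834 protein-coding genes whose mean reached 5 CPM. The most alike pair of members was CBX1 and SUV39H1 at 0.40, and the least alike was EED and UHRF1 at 1.53. UHRF1 was nearest to HNRNPA1 (0.24), LMNB1 (0.27) and FBXO5 (0.39), where its own spread around its mean was 1.19. EZH2 was nearest to B3GNT5 (0.18), RBM25 (0.28) and ZNF326 (0.29), DNMT1 to TNRC18 (0.20), MAT2A (0.20) and SPPL2B (0.22), and CBX3 to CLK1 (0.14), SRSF10 (0.18) and RWDD3 (0.21). The nearest genes were UBE2E2, MDM4 and ELP2 for CBX5 (0.15 to 0.16), PLEKHF2, AAMDC and YWHAQ for CBX1 (0.16 to 0.17), ECHDC1, AURKA and RP2 for SUV39H1 (0.13 to 0.16), and DLD, CCAR1 and RWDD4 for SUV39H2 (0.17 to 0.26). For SUZ12 they were FMR1, LGALS8 and NEMP1 (0.13 to 0.19), and for EED ANAPC16, CDK5RAP1 and WDR33 (0.13 to 0.15). These are descriptions over the same 14 libraries, which share depth and scaling.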

How the data were processed

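The deposited files hold whole-number read counts per gene symbol, 1 file per library, in the form that htseq-count writes. The submitters' processing notes name hg38, STAR 2.7.3a, HTSeq 0.12.4 and DESeq2 1.36.0, with no roles given. The annotation release and strand setting are not given in the sources used here. The 5 summary lines of each file, 12.8% to 41.8% of its reads, were left out. Libraries were sequenced from both ends after TruSeq preparation of total RNA, per the labels' protocols.

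CPM is the count scaled to 1000000 gene counts in each library. Genes were kept by filterByExpr over the 7 groups, scaled by TMM and tested in edgeR 4.0.16 (R 4.3.3) with the quasi-likelihood F-test on the 4 compared libraries, since replicate spread differed widely between groups. P-values were adjusted by Benjamini-Hochberg over all 19126 genes, and genes under 0.05 were called. The test was tested on simulated data with known changes. Alternatives were other scalings and filters, protein-coding genes only, DESeq2 1.42.0, all 14 libraries in 1 fit, a replicate block, leaving out each library, and an adjusted p under 0.01. 1 alternative, a block with crossed numbers, was added after seeing the data.

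The members and gene lists were chosen with earlier results of these data known. Besides the members, up to 4 called genes were nameable in a pathway list and comparison: the 2 that rose most and the 2 that fell most, provided their mean reached 1 CPM. Each member's 3 genes of most like pattern, the knockdown targets, MKI67, TOP2A, PCNA, CDKN2A and CDKN2B were also named. EZH1, markers and genes with overlapping exons were chosen after their values were seen. Promoters are from RefSeq on GRCh38.p14.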

Additional observations from a re-analysis of the deposited data

Results flagged for a closer look

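CBX5 was above both WT libraries in both libraries of ICM 1-2 and below both WT libraries in both libraries of ICM 3-4. Neither difference from WT passed the test (edgeR, adjusted p = 0.38 and 0.131). In ICM 3-4 CBX5 was at 79.7 CPM in both libraries, close to the 81.1 CPM of WT 1. The siHMGB2 libraries, without ICM, were also below both WT libraries, at 79.5 and 75.9 CPM. The log2 fold change of ICM 3-4 against ICM 1-2 was -0.89 (edgeR, adjusted p = 0.239 on the compared libraries) and -0.85 with all 14 libraries in 1 fit (adjusted p = 0.0405). The 2 comparisons share the WT libraries.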

How the results depend on the processing

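Relative log expression scaling, a minimum mean of 1 CPM and protein-coding genes only left the number of members called in all 7 comparisons as reported, and total count scaling changed it only from 5 to 4 (ICM 3-4 against WT), where no filter on low counts called 6, with SUV39H2. Of all genes, total count scaling called 48.0% there and no filter 28.0%, against 47.0% in the fit of the compared libraries. In ICM 1-2 against WT, with 0 members called, no filter on low counts called 2, DESeq2 2, all 14 libraries in 1 fit 4 and all 4 ICM libraries against WT 1. Of all genes these called 7.55%, 9.79%, 13.5% and 1.08%, against 0.173% in the fit of the compared libraries. All 14 libraries in 1 fit called 3 in ICM 3-4 against WT, 2 in ICM 3-4 against ICM 1-2 and 0 in siHMGB2 against WT. Of all genes that fit called 30.3%, 19.5% and 0.0%. At an adjusted p under 0.01 the counts were 2 in ICM 3-4 against WT and 1 in siHMGB2 against WT. Why these counts moved between tools was not tested.

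The replicate block called 2 members in ICM 1-2 against WT, and with crossed numbers, chosen after seeing the data because same-numbered libraries deviated against each other (correlation -0.16), also 2. Of all genes these blocks called 7.56% and 8.05%, against 0.173% without a block. The replicate block changed no other count of members where it was run. It was not run for ICM 3-4 against WT or ICM 3-4 against ICM 1-2. Same-numbered libraries deviated together in siBANF1 against ICM 1-2 (0.86) and in siCTCF against ICM 3-4 (0.79, with the numbers in the names of the deposited files), less in siHMGB2 against WT (0.23) and siSRRM2 against ICM 1-2 (0.04). With 2 pairs each, the libraries share only a number.

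Leaving out each library in turn gave 0 to 8 members called in ICM 1-2 against WT, 2 to 8 in ICM 3-4 against WT, 0 to 2 in ICM 3-4 against ICM 1-2 and in siHMGB2 against WT, and 0 to 7 in siSRRM2 against ICM 1-2. The same fits called 0.465% to 56.7% of all genes in ICM 1-2 against WT, 28.4% to 56.9% in ICM 3-4 against WT, 1.93% to 36.5% in ICM 3-4 against ICM 1-2, 4.03% to 13.8% in siHMGB2 against WT and 0.0% to 62.9% in siSRRM2 against ICM 1-2. The counts of 7 and 8 members stood in fits that called 44.5% to 62.9% of all genes. The lone library left in a group was then assumed to vary like the other group. Of 900 member values under alternatives, 53 changed sign. CBX1 in ICM 1-2 against WT (-0.02) became 0.02 with relative log expression scaling and DESeq2, 0.10 with total counts, 0.03 with no filter, 0.01 with a minimum mean of 1 CPM and 0.05 with protein-coding genes. The other changes of sign came from leaving out a library, with these ranges of log2 fold change. In ICM 1-2 against WT they were -0.31 to 0.24 for CBX1 and -1.27 to 0.06 for SUV39H1. In ICM 3-4 against WT they were -0.23 to 0.22 for SUV39H1 and -0.69 to 0.02 for SUZ12. In ICM 3-4 against ICM 1-2 they were -0.55 to 0.04 for CBX1, -0.03 to 1.32 for SUV39H1, -1.10 to 0.45 for SUV39H2, -0.36 to 0.48 for SUZ12 and -0.04 to 0.72 for EED. In siHMGB2 against WT they were -0.27 to 0.06 for EZH2, -0.19 to 0.06 for DNMT1 and -0.03 to 0.39 for UHRF1. In siSRRM2 against ICM 1-2 they were -0.20 to 0.47 for CBX1, -0.18 to 1.27 for SUV39H1, -0.33 to 1.10 for SUV39H2, -0.11 to 0.73 for EED and -0.36 to 0.11 for DNMT1. In siBANF1 against ICM 1-2 they were -0.84 to 0.14 for CBX1, -0.21 to 0.12 for CBX3, -0.40 to 0.26 for CBX5, -0.60 to 1.06 for SUV39H1, -0.38 to 1.03 for SUV39H2, -0.08 to 0.49 for EZH2, -0.18 to 0.42 for SUZ12, -0.48 to 0.56 for EED and -0.28 to 0.44 for UHRF1. In siCTCF against ICM 3-4 they were -0.16 to 0.26 for CBX1, -0.23 to 0.04 for CBX5, -0.54 to 0.66 for SUV39H2, -0.26 to 0.20 for EZH2, -0.31 to 0.50 for SUZ12 and -0.22 to 0.09 for UHRF1. SUV39H1, at 0.00 in siCTCF against ICM 3-4 and so without a sign to change, ran from -0.25 to 0.30 there and was -0.01 with all 14 libraries in 1 fit.

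The members had 69 counts or more in a library, and the number of libraries, 2 in a group, limits the precision of every test.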
